A study of Mus musculus with 6 samples.

Results

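Disease-associated microglia genes mark a state that the resident macrophages of the brain and retina take up around damaged or dying cells. The set described here holds 10 of them, listed by name and not by any value: Spp1, Apoe, Lpl, Gpnmb, Axl, Trem2, Tyrobp, Cd68, Ctsz and Lgals3. All 10 were present among the 32285 genes of the count table and all 10 passed the filter on low counts, a total of 10 over the 6 libraries, which left 20021 genes to be tested. RNA came from retinas of wild-type C57BL/6J mice at postnatal (PN) day 18. All pups, controls included, had undergone oxygen-induced retinopathy (OIR), in which 75% O2 from PN8 to PN13 closes the central capillaries and the return to room air leaves the central retina ischemic. In the OIR-CIH group (3 libraries) chronic intermittent hypoxia (CIH) followed, a program for 10 h each day of 266 cycles of 135 s in which O2 went from 20.95% to 5% and back. In the OIR-Norm group (3 libraries) the cages received an equal flow of gas at a constant O2 level. No library came from a retina that had not undergone OIR, so each comparison is between CIH and normoxia in the ischemic retina.

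Microglia at rest carry surface receptors for signals from neurons, such as CX3CR1 and P2RY12. In the disease-associated state these receptors are lowered, while genes for lipid uptake, lysosomal breakdown and secreted matrix proteins are raised, in a program that depends in part on the lipid-sensing receptor TREM2 and on apolipoprotein E. Several of the 10 genes are also made by other retinal cells: Apoe by Müller glia, Spp1 by large ganglion cells, Axl by glia and vessels, and Gpnmb by pigmented cells. In bulk RNA, fewer microglia and less RNA per microglial cell cannot be told apart.

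Total counts ran from 26289905 to 38010151 per library, and the groups overlapped in depth. Values are CPM, counts brought to a common library total after scaling by the trimmed mean of M-values. A gene was called changed at an adjusted p under 0.05 together with an absolute log2 fold change over 0.5, by the edgeR quasi-likelihood test with Benjamini-Hochberg adjustment over all genes tested, and adjusted p below are from this test unless another is named. RNA of Xist (298 to 1653 CPM) and of Y-linked genes (57.3 to 184 CPM in sum) was found in every library, which RNA of 1 eye would not give, although the study's methods name 3 eyes per group. Here n counts libraries, and how many animals they hold is unknown. The spread between these libraries may thus be technical in part.

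Across the 10 genes, RNA was lower in OIR-CIH for 9 and higher for 1 (Apoe), with a median log2 fold change of -0.385 against -0.005 over all genes tested. Only 1 of the 10, Spp1, was called, and it was lower in OIR-CIH. Over all genes, 0.315% were called in either direction and 0.21% were called lower. DESeq2 also called 1 of the 10, the same gene, and 0.674% of all genes. At an unadjusted p under 0.05, 5 of the 10 were lower (Spp1, Cd68, Tyrobp, Lgals3 and Axl) and 0 were higher. Of all genes tested, 7.09% were lower and 6.3% higher at that level, the shares to set beside the counts of the other lists below. The libraries of the groups did not overlap for 4 of the 10 (Spp1, Cd68, Tyrobp and Trem2), all lower in OIR-CIH, and such separation was found for 9.26% of all genes in this direction and 9.12% in the opposite one, where the set had 0. The set thus held 1 called gene, a group of lower values short of the threshold, and 3 genes (Apoe, Lpl and Ctsz) whose means lay close together.

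**Figure D1:**
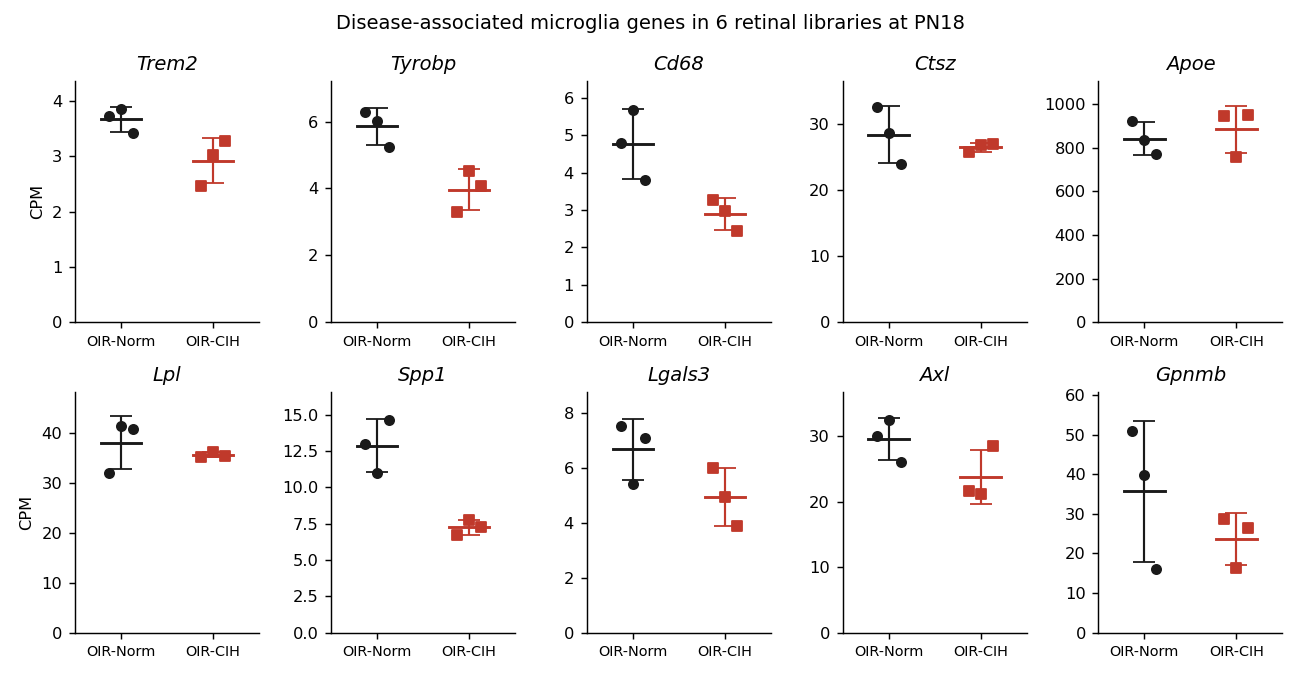
CPM of each of the 10 genes (vertical axes, starting at 0 and scaled gene by gene) in the 3 OIR-Norm libraries (black circles) and the 3 OIR-CIH libraries (red squares), with the group mean as a horizontal line and the SD as error bars. Trem2, Tyrobp, Cd68 and Spp1 show no overlap between the groups, while Apoe, Ctsz, Lpl, Lgals3, Axl and Gpnmb do overlap.

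Spp1 (ENSMUSG00000029304, chromosome 5) encodes osteopontin, a secreted matrix protein that binds integrins and CD44. It measured 6.71, 7.77 and 7.28 CPM in the OIR-CIH libraries and 13.0, 11 and 14.6 CPM in the OIR-Norm libraries. The highest OIR-CIH library was below the lowest OIR-Norm library. The mean was 7.25 ± 0.529 CPM (SD, n = 3) in OIR-CIH and 12.9 ± 1.77 CPM (SD, n = 3) in OIR-Norm, or 56.3% of the OIR-Norm level. Spp1 fell by 0.83 on the log2 scale (SE 0.13, adjusted p = 0.0144), with the rank of 42 by p among all genes tested. DESeq2 gave an adjusted p of 1.16e-05 for the same difference. When each library was left out in turn, the log2 fold change ran from -0.93 to -0.73 and the call remained in 4 of 6 fits. It was lost without OIR-CIH replicate 1 (adjusted p = 0.0983) and without OIR-CIH replicate 3 (adjusted p = 0.0669). The study also listed Spp1 among the changed genes of these libraries, so its direction here is not independent evidence.

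Large retinal ganglion cells, those rich in the heavy neurofilament chain, are a known neuronal source of Spp1. Among 13 ganglion cell markers, 0 were called by edgeR and 0 by DESeq2, 3 had an unadjusted p under 0.05 by edgeR (1 lower and 2 higher), and the median log2 fold change was 0.0136. Their summed level was 1188, 1470 and 1340 CPM in OIR-CIH and 1279, 1359 and 1399 CPM in OIR-Norm, so the groups overlapped. Nefh, the heavy neurofilament gene, had a mean of 92.7 CPM in OIR-CIH and 110 CPM in OIR-Norm (log2 fold change -0.25, adjusted p = 0.296). Its libraries did not overlap. On the opposite side, Stmn2, a microtubule regulator of neurons, had a log2 fold change of 0.22 (adjusted p = 0.319) without overlap and Gap43, a growth cone protein, one of 0.23 (adjusted p = 0.357) with overlap. Which cells accounted for the Spp1 difference was not tested.

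Osteopontin receptors were read from a list of 9 integrin and CD44 genes. Values were lower in OIR-CIH for 7 and higher for 2, with 0 called and a median of -0.182. At an unadjusted p under 0.05, 4 were lower and 0 higher, against 7.09% and 6.3% of all genes. Itga4 (integrin alpha 4) had a log2 fold change of -0.38 (adjusted p = 0.228), Itgb1 (integrin beta 1) of -0.29 (adjusted p = 0.301) and Cd44 of -0.54 (adjusted p = 0.307). The groups overlapped for all 3 of these genes, and Cd44 ranged from 15.3 to 32.6 CPM within OIR-Norm alone. Itga5 (integrin alpha 5), named after its values were seen, was the 1 gene of the list without overlap. It measured 3.85, 4.44 and 4.58 CPM in OIR-CIH and 4.84, 11.3 and 4.74 CPM in OIR-Norm (log2 fold change -0.68, adjusted p = 0.352).

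Trem2 (ENSMUSG00000023992, chromosome 17) encodes the lipid-sensing receptor of microglia, and Tyrobp (ENSMUSG00000030579, chromosome 7) encodes its signaling adaptor, also known as DAP12. Trem2 measured 2.47, 3.02 and 3.28 CPM in OIR-CIH and 3.73, 3.86 and 3.42 CPM in OIR-Norm. Tyrobp measured 3.30, 4.51 and 4.08 CPM in OIR-CIH and 6.30, 6.03 and 5.25 CPM in OIR-Norm. For both genes each OIR-CIH library was below each OIR-Norm library, with a gap that was narrow for Trem2. Trem2 stood at 79.6% of its OIR-Norm mean (2.92 ± 0.413 against 3.67 ± 0.224 CPM, SD, n = 3), a log2 fold change of -0.31 (SE 0.17, adjusted p = 0.465). Tyrobp stood at 67.6% (3.96 ± 0.614 against 5.86 ± 0.547 CPM, SD, n = 3), a log2 fold change of -0.56 (SE 0.16, adjusted p = 0.211). Neither passed the threshold, and the fitted values kept their sign when single libraries were left out, between -0.41 and -0.22 for Trem2 and between -0.65 and -0.46 for Tyrobp. Trem2 rested on 63 to 124 counts per library, which limits its precision.

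Of 13 genes that act with or below the TREM2-TYROBP pair, values were lower in OIR-CIH for 10 and higher for 3, with a median of -0.282 and 0 called by edgeR or DESeq2. At an unadjusted p under 0.05, 2 were lower and 0 were higher. These were Ptpn6, the phosphatase SHP-1 (log2 fold change -0.68, adjusted p = 0.223), and Syk, the kinase that binds phosphorylated TYROBP (log2 fold change -0.68, adjusted p = 0.282). Syk measured 1.14, 1.63 and 1.19 CPM in OIR-CIH and 2.01, 2.42 and 1.92 CPM in OIR-Norm, without overlap. Inpp5d, the lipid phosphatase SHIP1, had a log2 fold change of -0.28 (adjusted p = 0.44).

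Cd68 (ENSMUSG00000018774, chromosome 11) encodes a heavily glycosylated lysosomal membrane protein used as a stain for phagocytic macrophages. It measured 3.26, 2.98 and 2.43 CPM in OIR-CIH and 4.80, 5.68 and 3.80 CPM in OIR-Norm, again without overlap. The mean was 60.7% of that in OIR-Norm (2.89 ± 0.419 against 4.76 ± 0.942 CPM, SD, n = 3) and the log2 fold change was -0.73 (SE 0.19, adjusted p = 0.185). DESeq2 gave an adjusted p of 0.0617, and leaving out single libraries moved the fold change between -0.87 and -0.59. The size of the Cd68 difference was thus near that of Spp1 with a larger error.

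Ctsz (ENSMUSG00000016256, chromosome 2) encodes the lysosomal protease cathepsin Z. It measured 25.7, 26.8 and 26.9 CPM in OIR-CIH and 32.6, 28.6 and 23.9 CPM in OIR-Norm, so that the OIR-CIH libraries lay inside the OIR-Norm range. Its log2 fold change was -0.10 (SE 0.11, adjusted p = 0.733) and became 0.01 without OIR-Norm replicate 1. Ctsz overlaps Nelfcd on the opposite strand, a gene at 53.2 CPM on average, and since the strand setting of the counting is not stated, reads of the pair may not be fully separated. In a list of 20 further lysosomal genes, values were lower for 12 and higher for 8, with a median of -0.0741, 0 called, and 3 lower and 1 higher at an unadjusted p under 0.05. Laptm5, a lysosomal protein of hematopoietic cells, had a log2 fold change of -0.50 (adjusted p = 0.29), and Ctss, a cathepsin of microglia and other macrophages, one of -0.24 (adjusted p = 0.296). Gusb, the lysosomal beta-glucuronidase of many cell types, had one of -0.28 (adjusted p = 0.312).

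Apoe (ENSMUSG00000002985, chromosome 7) encodes the lipid carrier apolipoprotein E and was the most abundant of the 10 genes. It measured 944, 758 and 951 CPM in OIR-CIH and 923, 834 and 770 CPM in OIR-Norm, with full overlap. The log2 fold change was 0.07 (SE 0.11, adjusted p = 0.81) for means of 885 ± 109 and 842 ± 77.1 CPM (SD, n = 3). Müller glia and astrocytes, the main source of Apoe in the retina, were followed by 11 markers whose sum was 4015 ± 395 CPM (SD, n = 3) in OIR-CIH and 3844 ± 230 CPM (SD, n = 3) in OIR-Norm. Of these, Glul, the glutamine synthetase of Müller glia, was the highest at 1601 to 2071 CPM. The intermediate filament gene Gfap, which marks reactive glia, was the 1 called marker, with a mean of 63.8 CPM in OIR-CIH and 142 CPM in OIR-Norm (log2 fold change -1.15, adjusted p = 0.000187). Gfap is also on the study's list of changed genes. Aqp4, a water channel of glial endfeet, had a log2 fold change of -0.31 (adjusted p = 0.133) and Rlbp1, a retinoid-binding protein of Müller glia, one of 0.34 (adjusted p = 0.141).

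Lpl (ENSMUSG00000015568, chromosome 8) encodes lipoprotein lipase, which frees fatty acids from lipoproteins. It measured 35.1, 36.1 and 35.4 CPM in OIR-CIH and 32.0, 41.3 and 40.7 CPM in OIR-Norm. The OIR-CIH libraries were close together and inside the range of the OIR-Norm libraries (log2 fold change -0.10, SE 0.10, adjusted p = 0.716). In a list of 16 genes of lipoprotein and lipid handling, of which 15 could be tested, values were lower for 9 and higher for 6, with 0 called, 4 lower and 0 higher at an unadjusted p under 0.05, and a median of -0.0309. Lipa, the lysosomal acid lipase, had a log2 fold change of -0.31 (adjusted p = 0.284) and Abca1, the cholesterol exporter, one of -0.20 (adjusted p = 0.304), both also without overlap between the groups. Gpihbp1, which carries the LPL enzyme across capillary endothelium, stayed under 0.4 CPM in all 6 libraries, with 0, 2 and 3 counts in OIR-CIH and 12, 5 and 9 counts in OIR-Norm. It had the lowest p of the list, with no overlap between the groups (log2 fold change -2.31, adjusted p = 0.227), at counts near the lower end of detection.

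Lgals3 (ENSMUSG00000050335, chromosome 14) encodes galectin-3, a sugar-binding protein that microglia release. It measured 6.00, 4.96 and 3.89 CPM in OIR-CIH and 7.53, 5.44 and 7.10 CPM in OIR-Norm. OIR-CIH replicate 1 was above OIR-Norm replicate 2, so the groups overlapped. The log2 fold change was -0.46 (SE 0.18, adjusted p = 0.317). Among 5 genes of related galectins and their ligand, values were lower for 2 and higher for 3, with a median of 0.0471 and 0 called. Lgals3bp, the secreted galectin-3-binding protein, was the 1 of these with an unadjusted p under 0.05, with a mean of 25.8 CPM in OIR-CIH and 18.4 CPM in OIR-Norm and no overlap (log2 fold change 0.49, adjusted p = 0.216). DESeq2 gave Lgals3bp an adjusted p of 0.0488, with a fold change under the minimum.

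Axl (ENSMUSG00000002602, chromosome 7) encodes a receptor kinase of the TYRO3, AXL and MERTK family, which clears dying cells and responds to the ligands GAS6 and protein S. It measured 21.6, 21.1 and 28.5 CPM in OIR-CIH and 30.0, 32.5 and 26.1 CPM in OIR-Norm. OIR-CIH replicate 3 exceeded OIR-Norm replicate 3, and the other libraries were apart. The log2 fold change was -0.31 (SE 0.12, adjusted p = 0.328). The ligand gene Pros1, which encodes protein S, measured 12.6, 11.6 and 13.8 CPM in OIR-CIH and 18.5, 20.5 and 16.2 CPM in OIR-Norm, without overlap. Its log2 fold change was -0.53, with an adjusted p of 0.0919 by edgeR and 0.00646 by DESeq2. Pros1 is on the study's list of changed genes as well. The other ligand and receptors had fold changes nearer 0: 0.10 for Gas6 (adjusted p = 0.642), -0.07 for Mertk (adjusted p = 0.856) and 0.08 for Tyro3 (adjusted p = 0.706). The groups overlapped for each of these 3 genes.

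**Figure D2:**
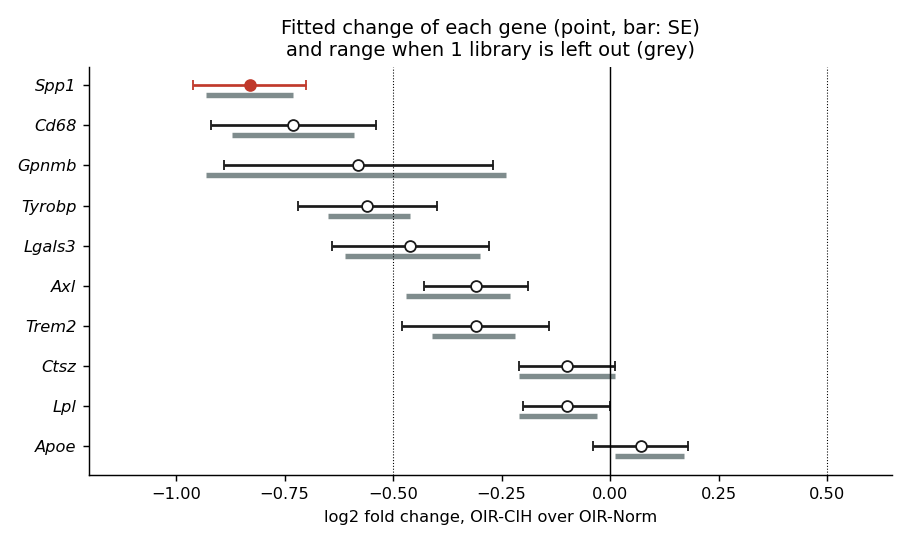
Fitted log2 fold change of OIR-CIH over OIR-Norm for the 10 genes (points), with the SE as a bar, and in grey the range of the fold change when 1 library is left out. Dotted lines mark the minimum of 0.5 for a call. Spp1, at -0.83, is the filled point and the only called gene. The grey range of Gpnmb is the longest, from -0.93 to -0.24, and that of Ctsz reaches 0.01.

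Gpnmb (ENSMUSG00000029816, chromosome 6) encodes a glycoprotein of lysosomes and melanosomes, found in lipid-laden macrophages and in pigmented cells. It measured 28.6, 16.3 and 26.4 CPM in OIR-CIH and 50.9, 39.9 and 16.2 CPM in OIR-Norm. The lowest value of all 6 belonged to an OIR-Norm library, next to OIR-CIH replicate 2, and the highest value was 3.13 times the lowest. The log2 fold change was -0.58 (SE 0.31, adjusted p = 0.446), with the largest SE of the 10 genes. It became -0.93 without OIR-Norm replicate 3 (adjusted p = 0.0528) and -0.24 without OIR-Norm replicate 1 (adjusted p = 0.76), so single OIR-Norm libraries set its size.

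Genes of melanin-making cells were set beside Gpnmb library by library, a comparison chosen after their values were seen. Tyrp1, a melanosome enzyme, measured 30.2, 18.5 and 30.3 CPM in OIR-CIH and 50.8, 36 and 18 CPM in OIR-Norm. The CPM of Gpnmb divided by that of Tyrp1 was between 0.87 and 1.11 in all 6 libraries, so the ratio varied by 1.27 times while Gpnmb itself varied by 3.13 times. The ratio of Gpnmb to Pmel, which forms the fibrils of melanosomes, varied by 1.59 times, that to Mlana by 1.69 times, that to Dct by 1.79 times and that to Tyr by 1.89 times. OIR-Norm replicate 1 was the highest library for Gpnmb and for each of these 5 genes. Slc45a2, a further melanocyte marker, was not among the ratios computed. It measured 1.41, 0.936 and 1.01 CPM in OIR-CIH and 1.43, 0.702 and 0.911 CPM in OIR-Norm, at 20 to 44 counts per library. Its lowest library was OIR-Norm replicate 2, where Gpnmb was at 39.9 CPM, so Slc45a2 did not follow Gpnmb there.

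Markers of the retinal pigment epithelium that serve the visual cycle followed another order. Rpe65, the retinoid isomerase, measured 61.4, 42.2 and 33.9 CPM in OIR-CIH and 38.9, 25.1 and 23.0 CPM in OIR-Norm, and the ratio of Gpnmb to it varied by 4.11 times. Ttr, a retinol carrier, had a log2 fold change of 0.75 (adjusted p = 0.127), Lrat, a retinol acyltransferase, one of 0.80 (adjusted p = 0.186) and Rgr, a retinal-binding opsin, one of 0.59 (adjusted p = 0.228). Best1, a further pigment epithelium marker named after its values were seen, went the other way (log2 fold change -0.19, adjusted p = 0.861). It measured 0.314, 0.52 and 0.873 CPM in OIR-CIH and 0.617, 0.842 and 0.628 CPM in OIR-Norm, at 8 to 33 counts per library. Its lowest library was OIR-CIH replicate 1, and its ratio to Gpnmb was not computed. In the full list of 11 pigment epithelium and melanocyte markers, 0 were called by edgeR or DESeq2. At an unadjusted p under 0.05 by edgeR, 0 were lower and 4 higher in OIR-CIH, against 7.09% and 6.3% of all genes. The summed level of the 11 markers ran from 455 to 679 CPM in OIR-CIH and from 306 to 651 CPM in OIR-Norm. Mitf, which encodes a transcription factor that drives Gpnmb in pigmented cells and osteoclasts, had a log2 fold change of 0.06 (adjusted p = 0.88). The part of pigmented cells in the Gpnmb values was not tested beyond these ratios.

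**Figure D3:**
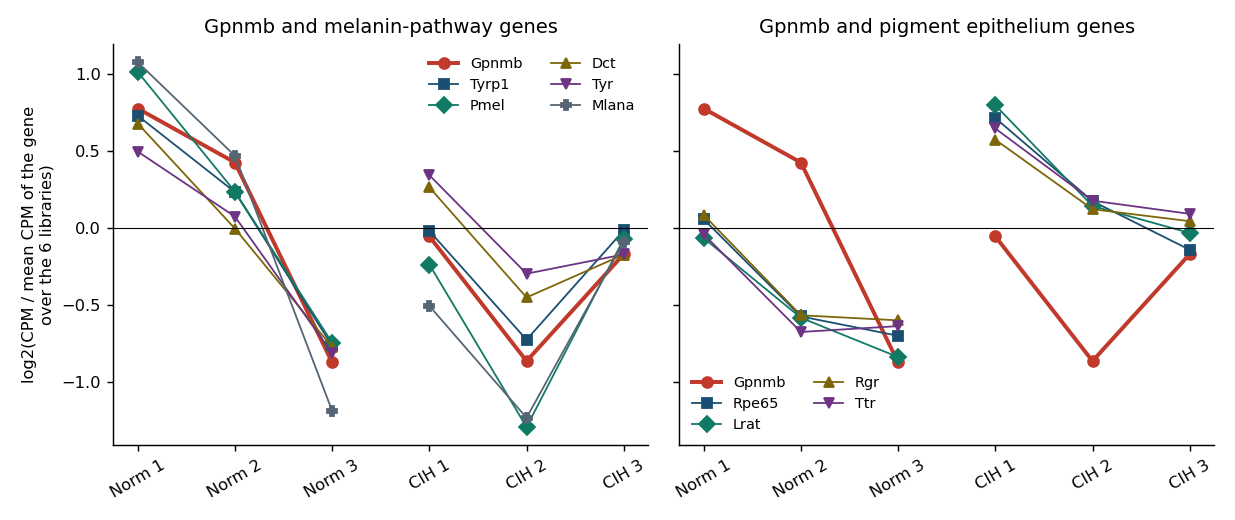
log2 of the CPM of each gene relative to its mean over the 6 libraries (vertical axis), by library, for Gpnmb (thick red line) with the melanin genes Tyrp1, Pmel, Dct, Tyr and Mlana on the left and with the pigment epithelium genes Rpe65, Lrat, Rgr and Ttr on the right. Lines join the libraries of a group only to guide the eye, since replicates have no order. Gpnmb runs close to Tyrp1 in all 6 libraries and apart from Rpe65, Lrat, Rgr and Ttr, which are highest in OIR-CIH replicate 1. Slc45a2 and Best1 are not shown.

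Homeostatic microglia markers are lowered in the disease-associated state. Of 14 such genes, 1 was called, values were lower for 13 and higher for 1, the median log2 fold change was -0.311, and 6 were lower without overlap between the groups, against 9.26% of all genes. Fcrls, an Fc receptor-like protein of resting microglia, was the 1 called gene, with 6.16 ± 0.436 CPM (SD, n = 3) in OIR-CIH and 9.94 ± 0.695 CPM (SD, n = 3) in OIR-Norm (log2 fold change -0.69, adjusted p = 0.0293). With each library left out in turn, Fcrls was called in 1 of 6 fits, with fold changes from -0.75 to -0.65 and adjusted p from 0.0397 to 0.118 by edgeR. Cx3cr1, the fractalkine receptor, had a log2 fold change of -0.64 (adjusted p = 0.141) and Sall1, a transcription factor of microglial identity, one of -0.81 (adjusted p = 0.174). Fcrls and Cx3cr1 are on the study's list of changed genes. P2ry12, a receptor for ATP breakdown products, had a log2 fold change of -0.23 (adjusted p = 0.567), Csf1r, the receptor on which microglial survival depends, one of -0.19 (adjusted p = 0.53) and Tmem119, a microglial membrane protein, one of 0.09 (adjusted p = 0.898). Summed over the 14 genes, the level was 96.2, 93.4 and 108 CPM in OIR-CIH and 129, 130 and 115 CPM in OIR-Norm, without overlap. The OIR-CIH mean was 79.3% of that in OIR-Norm (p = 0.1 in an exact permutation test, two-sided, which is the lowest value possible for 3 against 3).

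To see whether the 10 genes were lower beyond these markers, each was expressed as a percent of the homeostatic sum in the same library. Because the sum itself was lower in OIR-CIH, most genes of the retina are shifted upward on this scale, by a median of 0.34 in log2 units over 18853 genes above 0 in all libraries. By this measure 44.1% of all genes tested were higher in OIR-CIH without overlap and 1.47% were lower. Of the 10 genes, Spp1 was lower without overlap, Apoe was higher without overlap and 8 overlapped, with a median of -0.05.

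Spp1 amounted to 6.98, 8.32 and 6.76% of the homeostatic sum in OIR-CIH and 10.1, 8.48 and 12.7% in OIR-Norm. The highest OIR-CIH library was only just below the lowest OIR-Norm library (difference of -0.49 in log2 units, exact two-sided permutation test, p = 0.1). With each gene of the sum omitted in turn, a check added after the data were seen, this Spp1 difference ran from -0.53 to -0.45, and the groups overlapped in 2 of 14 cases. Trem2 amounted to 2.57, 3.23 and 3.05% in OIR-CIH and 2.89, 2.96 and 2.97% in OIR-Norm, with means of 2.95 and 2.94%. Cd68 (difference of -0.38) and Tyrobp (difference of -0.24) overlapped in the full measure, and both were lower without overlap when Fcrls and Cx3cr1 were left out of the sum. Fcrls and Cx3cr1 had the lowest p of the 14 markers. Leaving them out moved the sum in OIR-CIH from 79.3 to 83.3% of OIR-Norm, which by itself lowers every gene in OIR-CIH on this scale. The share of all genes without overlap was not computed for the smaller sum. Axl was at 0.01, Lgals3 at -0.11 and Gpnmb at -0.14, and Lpl and Ctsz were both at 0.25. Apoe amounted to 982, 812 and 884% in OIR-CIH and 714, 640 and 668% in OIR-Norm, a difference of 0.40 that is near the median of all genes.

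**Figure D4:**
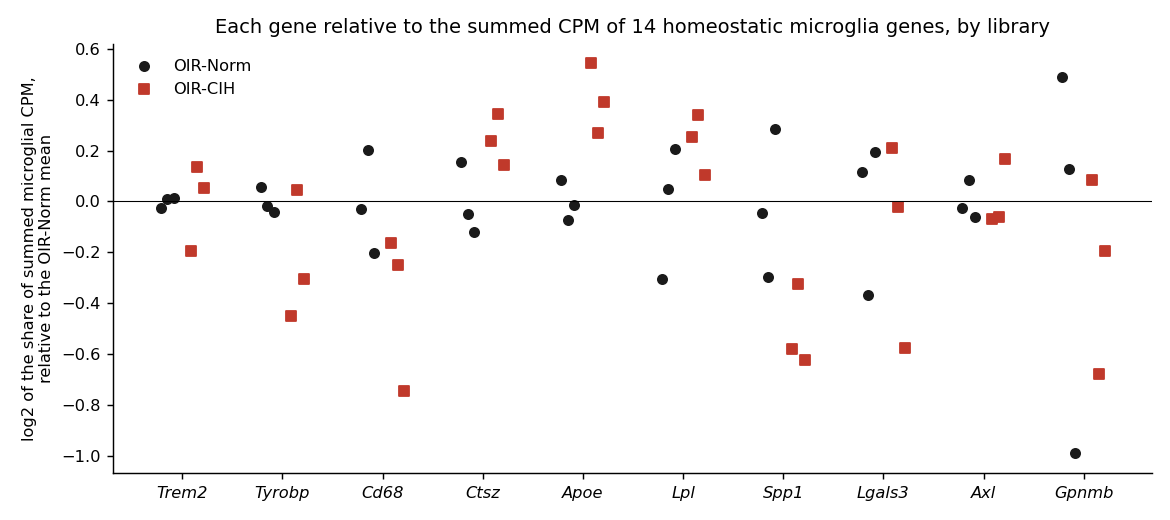
log2 of the share that each gene makes of the summed CPM of 14 homeostatic microglia genes, relative to the OIR-Norm mean (vertical axis), for each OIR-Norm (black circles) and OIR-CIH (red squares) library. Spp1 is lower and Apoe higher in OIR-CIH without overlap, Trem2 lies around 0 in both groups, and 0.34 is the median difference over all genes.

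Other genes of the disease-associated state were read from a list of 22, of which 21 were matched and tested (Clec7a was not matched to an identifier in the table). Values were lower in OIR-CIH for 14 and higher for 7, with a median of -0.0737. None was called by edgeR and 2 were called by DESeq2. At an unadjusted p under 0.05 by edgeR, 7 were lower and 1 higher, against 7.09% and 6.3% of all genes. Lyz2, the lysozyme of macrophages, had 7.65, 7.63 and 6.67 CPM in OIR-CIH and 10.1, 16.9 and 13.2 CPM in OIR-Norm (log2 fold change -0.88, adjusted p = 0.0518 by edgeR and 0.000146 by DESeq2). Csf1, a growth factor of microglia, had a log2 fold change of -0.70 (adjusted p = 0.157 by edgeR and 0.00951 by DESeq2). Lyz2 and Csf1 are on the study's list of changed genes. For Csf1 the study also reported lower RNA in OIR-CIH by qPCR, in a larger set of retinas at PN18. Itgax, which encodes CD11c and is near 0 in resting microglia, had 5, 7 and 9 counts in OIR-CIH and 25, 24 and 16 counts in OIR-Norm, without overlap (log2 fold change -1.63, adjusted p = 0.16).

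The chemokine genes Ccl3 and Ccl4 and the cystatin gene Cst7, induced in this state and named here after their values were seen, were likewise at few counts, from 2 to 27 per library, with log2 fold changes of -1.33 (Ccl3, adjusted p = 0.275), -1.52 (Ccl4, adjusted p = 0.327) and -1.24 (Cst7, adjusted p = 0.339). B2m, likewise named after its values were seen, encodes the light chain of MHC class I. It was the 1 gene of the list that was higher at an unadjusted p under 0.05, with a mean of 46.9 CPM in OIR-CIH and 36.5 CPM in OIR-Norm without overlap (log2 fold change 0.36, adjusted p = 0.208). The abundant lysosomal genes of the list, also named after their values were seen, stood at 0.00 for Ctsd (adjusted p = 0.996) and 0.05 for Ctsb (adjusted p = 0.859). These 2 genes were at 389 to 613 CPM and are made by most retinal cells.

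**Figure D5:**
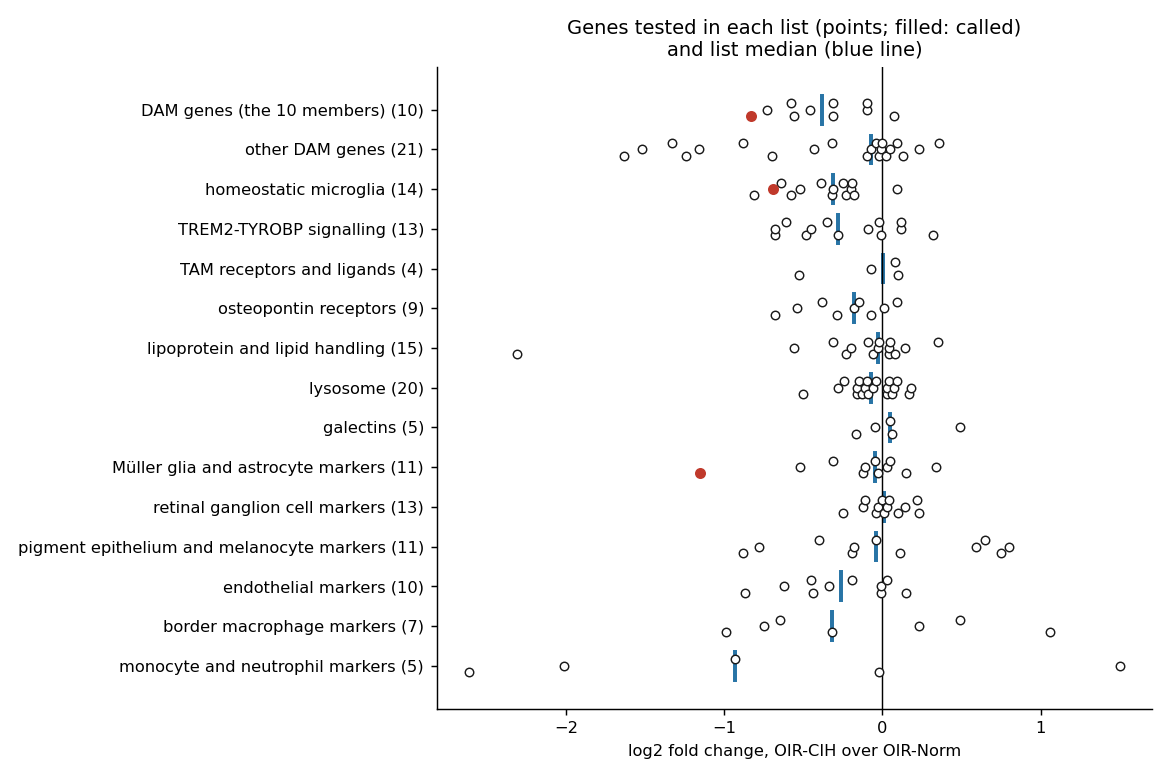
log2 fold change of OIR-CIH over OIR-Norm (horizontal axis) for each tested gene of the 10-gene set and of 14 other lists, with the number tested in parentheses, called genes filled in red and the list median as a blue line. The median is -0.385 for the 10 genes, -0.311 for the homeostatic markers and -0.0737 for the other disease-associated genes.

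Cells other than parenchymal microglia that share these genes were followed by their own markers. Macrophages at vessels and borders (7 markers) had a summed level of 13.6, 13.3 and 18.4 CPM in OIR-CIH and 18.9, 20.2 and 21.0 CPM in OIR-Norm, without overlap. Values were lower for 4, all without overlap against 9.26% of all genes, and higher for 3, with 0 called. Mrc1, the mannose receptor, had a log2 fold change of -0.99 (adjusted p = 0.249), F13a1, a coagulation factor subunit, one of -0.75 (adjusted p = 0.296) and Lyve1, a hyaluronan receptor that lymphatic vessels also carry, one of -0.32 (adjusted p = 0.299). The 3 higher markers, named after their values were seen, were at under 1 CPM on average and overlapped, with log2 fold changes of 1.06 for Cbr2 (adjusted p = 0.493), 0.49 for Cd163 (adjusted p = 0.758) and 0.23 for Pf4 (adjusted p = 0.849). The part of these macrophages in the values of Tyrobp, Cd68 and Trem2 was not tested. Monocyte and neutrophil markers (8 genes, of which 5 could be tested) summed to between 0.26 and 1.51 CPM, with 0 called. The neutrophil marker Ly6g was at 0 in all 6 libraries, where 3 counts, the level that a count of 0 allows, equal 0.0794 to 0.118 CPM. Ccr2, the chemokine receptor of blood monocytes, had 0, 0 and 6 counts in OIR-CIH and 4, 13 and 8 counts in OIR-Norm. Endothelial markers (10 genes) had 0 called and 0 at an unadjusted p under 0.05, with a sum of 228 to 267 CPM in OIR-CIH and 228 to 309 CPM in OIR-Norm. Values were lower for 8 and higher for 2, with a median of -0.263, and the groups overlapped for all 10. Kdr weighed most in the sum, with a mean of 172 CPM in each group (log2 fold change -0.01, adjusted p = 0.974). Vwf had a log2 fold change of -0.87 (adjusted p = 0.383), Esam one of -0.34 (adjusted p = 0.479) and Cdh5 one of -0.62 (adjusted p = 0.506).

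Levels can be set between genes only per transcript length, here as CPM per kilobase of the principal transcript. In OIR-Norm, Apoe stood at 598 ± 54.8 (SD, n = 3) and Ctsz at 19.7 ± 3, each above the next gene in every library. Tyrobp (10.4 ± 0.969), Gpnmb (9.64 ± 4.78), Lpl (9.23 ± 1.26), Spp1 (8.55 ± 1.17) and Axl (6.92 ± 0.761) followed, and neighbors in this order overlapped. Lgals3 (4.71 ± 0.779), Cd68 (3.87 ± 0.765) and Trem2 (3.37 ± 0.205) were lowest, below Axl in every library. In OIR-CIH, Apoe (628 ± 77.6) and Ctsz (18.4 ± 0.47) were again the highest, Lpl (8.64 ± 0.129) came next and above Tyrobp (7.02 ± 1.09) in every library, and Spp1 stood at 4.81 ± 0.351. Spp1 was thus sixth of the 10 genes in OIR-Norm and seventh in OIR-CIH. With the length of all exons in place of the principal transcript, Apoe and Ctsz stayed highest in both groups and the order below them changed.

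Promoter sequence is shown for the genes without overlap between the groups that have an entry in RefSeq (Spp1, Trem2 and Cd68), a choice made after their values were seen. An entry was found for 8 of the 10 genes (11 promoters), and Lpl and Tyrobp had none. The motif searched with most bearing on microglia was GAGGAA, the core site of PU.1, the transcription factor that sets macrophage identity, and next to it TGANTCA, the site of AP-1 factors, which are induced in activated microglia. Each was searched on both strands in the window from 250 bases before to 50 bases after the start, with 12 motifs searched in all. The 250 bases before the start are printed 5′ to 3′ on the strand of the gene, from assembly GRCm38.p6, with matches to GAGGAA or TGANTCA on either strand in capitals. The Spp1 window is chr5:104434861-104435110 on the plus strand, that of Trem2 is chr17:48346151-48346400 on the plus strand and that of Cd68 is chr11:69666171-69666420 on the minus strand.
Spp1: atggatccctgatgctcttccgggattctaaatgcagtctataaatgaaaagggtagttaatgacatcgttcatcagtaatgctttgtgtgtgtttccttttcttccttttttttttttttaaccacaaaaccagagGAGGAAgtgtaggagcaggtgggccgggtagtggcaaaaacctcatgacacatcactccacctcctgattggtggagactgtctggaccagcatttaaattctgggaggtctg
Trem2: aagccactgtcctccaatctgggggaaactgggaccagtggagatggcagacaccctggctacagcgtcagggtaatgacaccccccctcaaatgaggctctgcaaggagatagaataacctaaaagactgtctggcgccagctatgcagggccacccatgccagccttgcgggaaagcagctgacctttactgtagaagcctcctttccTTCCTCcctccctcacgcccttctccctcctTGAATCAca
Cd68: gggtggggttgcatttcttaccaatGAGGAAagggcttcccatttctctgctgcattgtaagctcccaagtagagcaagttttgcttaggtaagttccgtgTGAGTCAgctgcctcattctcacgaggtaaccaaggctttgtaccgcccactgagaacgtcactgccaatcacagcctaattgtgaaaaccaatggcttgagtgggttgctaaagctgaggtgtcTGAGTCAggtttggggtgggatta

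The Spp1 window held GAGGAA at -113, counted in bases before the start, where it was part of the longer form GAGGAAGT. The longer form was found in 3.2% of 32851 mouse promoters and in 1 of the 11 promoters of the 8 genes. Trem2 held GAGGAA on the reverse strand at -40 and TGANTCA at -9. Cd68 held GAGGAA at -225 and TGANTCA at -149 and at -24. GAGGAA was present in 6 of the 11 promoters, those of 5 genes (Apoe, Axl, Cd68, Spp1 and Trem2), and in 28.3% of all promoters. TGANTCA was present in 3 of the 11, those of 3 genes (Cd68, Gpnmb and Trem2), and in 7.81% of all promoters. CACGTG, an E-box bound by MITF and related factors, was present in 0 of the 11 and in 7.15% of all promoters. These matches describe letters in a short window, and binding was not tested. GAGGAA was found in Apoe, which did not differ past the threshold, as in Spp1, which did.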

How the data were processed

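Retinal poly(A) RNA of 3 OIR-CIH and 3 OIR-Norm libraries (250 ng of RNA each) was measured by stranded RNA-seq. The authors aligned reads with STAR 2.7.9a and deposited raw counts per gene without normalization. Their methods name Ensembl 105 and the labels GRCm38, and the strand setting of the counting is not stated, so genes are given by chromosome only. Groups came from the sample labels. Symbols, chromosomes and lengths came from GENCODE M21 by gene identifier (32158 of 32285 matched) and promoters from RefSeq. Counts were fitted with edgeR 4.0.16 (limma 3.58.1, R 4.3.3), TMM scaling, genes with 10 or more counts in total, and the quasi-likelihood test without the legacy dispersion estimate, a fit tested on simulated data. DESeq2 1.42.0 was an alternative. CPM were computed from TMM-scaled library sizes.

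The 10 genes, the other gene lists and the tests were chosen with earlier results of these data known. All 10 genes are named whatever their values, and from each other list the called genes, the 3 with the lowest p, the most abundant of marker lists, and genes directly tied to the 10 (Gas6, Pros1, Mitf, Cx3cr1, P2ry12, Tmem119 and Csf1r). Some genes of these lists and a setting that rests on one of them are not reported here. Replicates of a group all differed by more than counting error.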

Additional observations from a re-analysis of the deposited data

How the results depend on the processing

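In the 14 alternative fits, 137 of 140 results for the 10 genes kept both the sign of the fold change and the outcome of the call. In all of these fits 9 genes kept their sign. The exceptions were Spp1, at -0.78 without OIR-CIH replicate 1 and -0.83 without OIR-CIH replicate 3, where the call was lost, and Ctsz, which turned to 0.01 when OIR-Norm replicate 1 was dropped and was otherwise as low as -0.21. With each library left out in turn, 0 to 1 of the 10 genes were called. The number of all genes called was 63 (42 lower and 21 higher), 135 with DESeq2 (101 lower and 34 higher) and 29 to 97 with each library left out (22 to 81 lower and 7 to 31 higher), lowest without OIR-CIH replicate 1 and highest without OIR-Norm replicate 3 for the total. In the 14 other lists 2 genes were called, 6 with DESeq2 and 1 to 4 with each library left out (1 without OIR-CIH replicate 1 or 2, and 4 without OIR-Norm replicate 1). The cause was not tested.

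Replicate numbers did not pair the libraries (correlation of same-numbered deviations 0.188, 0.169 and -0.248 over 13968 genes). With the replicate number as a block, 68 genes were called, 48 of them shared with the 63, 1 of the 10 genes (Spp1, adjusted p = 0.0425 by edgeR) was called and their median was -0.38.

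Relative to the homeostatic sum, 1 of the 10 genes was lower without overlap, against 3 with Fcrls and Cx3cr1 left out of the sum, an alternative added after the data were seen. That alternative by itself lowers every gene in OIR-CIH on this scale, and no share over all genes was computed for it. Depth limits most the genes at few counts per library, such as Itgax, the chemokine genes, Cst7, Gpihbp1 and Ccr2. Among the 10 genes, Trem2 had the lowest count in a library (63).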
